A study of Drosophila melanogaster with 6 samples.

Results

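The subject here is a stretch of the Drosophila X chromosome that runs from mRNA-cap, which encodes the capping enzyme of nascent messenger RNA, to CG9213, a gene without a name of its own. Members are all genes of RefSeq's table (Release 6 assembly) whose annotated start lies from that of mRNA-cap to that of CG9213, both included, where start is the lower coordinate whatever the strand. The rule takes in 137 of the 17872 genes of the table and of the 2705 on chromosome X. A total of 90 members were measured, out of 11982 measured genes in the series. The window was selected on the very values described below, the differences between dBigH1-induced and S2 control arrays in gene order, so these differences are a description of the 6 arrays and carry no test. The files name no genome build, so genes are placed by their order and not by coordinates.

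Gene expression was measured in S2 cells, an embryo-derived Drosophila line that resembles macrophage-like blood cells. The dBigH1-induced group (3 arrays) was made from S2 cells that express dBigH1, the linker histone of the early embryo, and the labels name these cells dBigH1::FLAG, kept under 0.3 mg/ml hygromycin B. The S2 control group (3 arrays) was made from wild-type cells. Both groups were exposed to 1 mM copper sulphate for 24 h, the medium in the experiment was that of S2 cells for both, and each array was hybridised with material amplified from 25 ng of total RNA. Whether the dBigH1::FLAG cells are 1 clone, and which promoter drives the histone, is not given in the sources used here. Effects of the histone and differences between the lines that were there before copper was added cannot be told apart in this design. The arrays read RNA alone: gene copy number and chromatin were not analysed here, and fewer cells with a transcript cannot be told apart from less of it per cell.

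Genes that lie side by side on a fly chromosome often have unrelated tasks, and the named members of this window do. They include ion channels and guidance molecules of neurons, enzymes of metabolism, parts of mitochondria and ribosomes, nuclear enzymes and proteins of the secretory pathway. The X chromosome is the one that the male-specific lethal (MSL) complex marks in male flies, where it raises transcription of most active X-linked genes, and S2 cells are known to have this complex. Linker histones bind the DNA that enters and leaves the nucleosome.

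Of the 52 members with a signal above the median of all probe sets, 41 had a negative change in induced cells, and 26 of the 52 were lower and passed the test described next. Among all 6984 measured genes above that median, 3354 had a negative change and 21.3% were lower. The median log2 change over the 90 measured members, induced minus S2 control, was -0.11, and 65 of the 90 changes were negative. Over all 11982 measured genes the median was -0.01, and 52.2% of changes were negative. In the limma fit over all probe sets, with a threshold of 0.05 on the Benjamini-Hochberg adjusted p, 31 members were lower, 3 were higher and 56 did not pass. Over all measured genes 16.0% were lower, 14.5% were higher and 30.5% passed in either direction. Nothing is read from these counts, since the same contrast drew the window. The 3 induced arrays all lay below the 3 S2 control arrays for 42 members, against 23.6% of all measured genes, and all above them for 6 members, against 21.8% of all measured genes.

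The shift was present on each induced array, but the window was drawn from these same arrays. The medians on each array are therefore description and carry no test. Taken against the mean of the S2 control arrays, the median over members was -0.11, -0.09 and -0.13 on the 3 induced arrays, against -0.01, -0.02 and 0.03 on the 3 S2 control arrays. All induced arrays were lower on this measure. Over members brighter than the median of all probe sets, a log2 signal of 6.33, these medians were -0.26, -0.14 and -0.21 on the induced arrays, against -0.01, -0.04 and 0.04 on the S2 control arrays. The groups did not overlap on either measure. On the rest of chromosome X the same median over all genes was 0.02, 0.03 and 0.03 on the induced arrays, against 0.00, -0.02 and 0.02 on the S2 control arrays. Over its genes above the median signal it was 0.05, 0.08 and 0.06 on the induced arrays. The S2 control arrays gave 0.00, -0.02 and 0.03 there, so these groups did not overlap either, with induced arrays higher.

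**Figure D1:**
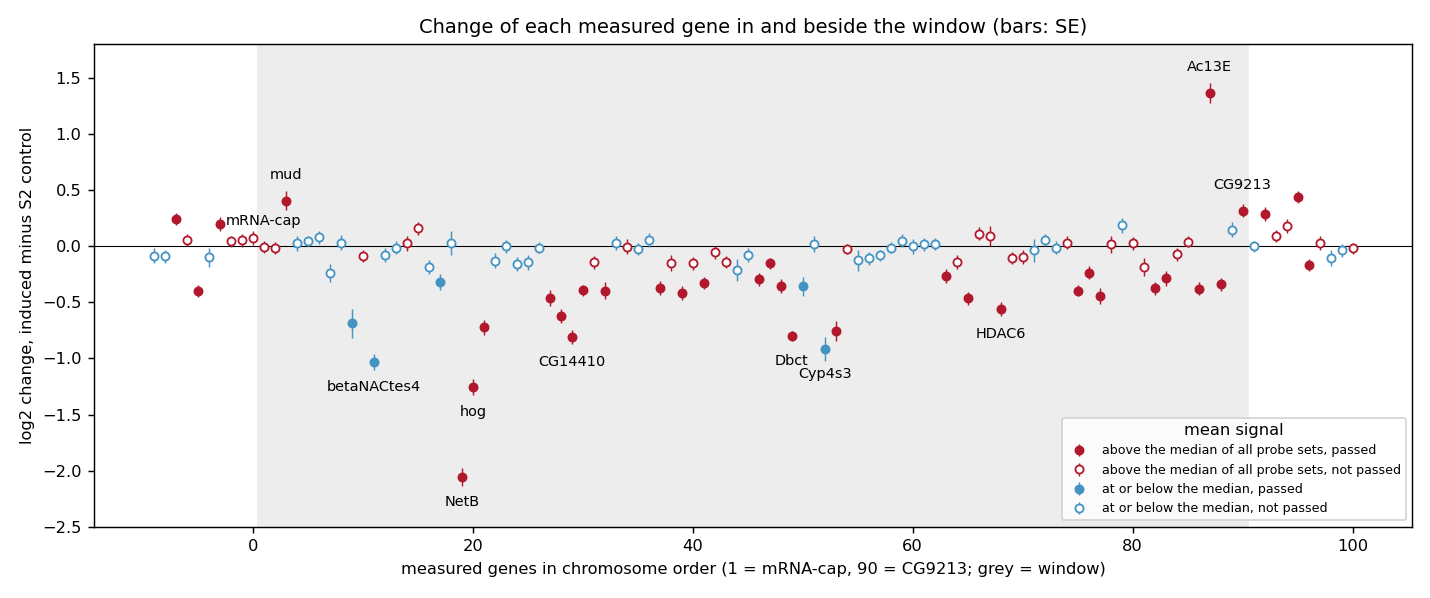
Log2 change (induced minus S2 control) of the 90 measured window genes in chromosome order, with 10 measured genes on each side; points are genes, bars are standard errors, colour gives signal above or below the median of all probe sets, and filled points passed limma at an adjusted p of 0.05. Inside the window filled points below 0 run from betaNACtes2 to CG7860, and outside it l(1)G0469 (-0.40) and Chsy (-0.17) are also filled below 0, while mRNA-cap sits at -0.01 and CG9213 at 0.32.

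The 3 lowest changes belonged to NetB, hog and betaNACtes4, all among the first 30 measured members. NetB encodes a netrin, a secreted guidance cue for growing axons. Its log2 signals were 6.90, 6.81 and 6.58 in induced cells, against 8.80, 8.87 and 8.79 in S2 control. All 3 induced arrays lay far below all S2 control arrays, a difference of -2.06 (SE 0.08), or 4.17-fold, which was the lowest change of the window. The next measured gene in order is hog, whose span lies within that of NetB in the gene table. The signals of hog were 8.04, 8.32 and 8.17 in induced cells, against 9.47, 9.40 and 9.44 in S2 control. The groups were again apart, with a difference of -1.26 (SE 0.07), or 2.39-fold. Whether the array tells these overlapping genes apart by strand is not given in the sources used here. NetA, the other netrin gene of the fly and also a member, had no probe set of its own here.

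A pair of betaNACtes genes, which encode testis forms of a chaperone subunit that binds nascent proteins, stood lower ahead of NetB. For betaNACtes4 the signals were 5.75, 5.56 and 5.74 in induced cells, against 6.67, 6.67 and 6.81 in S2 control, so the groups did not overlap and differed by -1.03 (SE 0.07). For betaNACtes2 they were 4.31, 4.37 and 4.27 in induced cells, against 4.65, 5.21 and 5.16 in S2 control, also without overlap, with a difference of -0.69 (SE 0.13) and a wide spread in S2 control (SD 0.31). Both are dim, with betaNACtes4 at the 48.1 and betaNACtes2 at the 20.3 percentile of signal, and they belong to a family of related copies. A further probe set is annotated to betaNACtes2, betaNACtes3 and betaNACtes6 together, so which copy a reading shows is uncertain. The span of betaNACtes4 also lies within that of dpr8, whose change was -0.09 (SE 0.05) and did not pass.

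Further along, a gene known by number, CG14410, read 7.70, 7.78 and 7.63 in induced cells, against 8.46, 8.49 and 8.58 in S2 control. Its groups were apart by -0.81 (SE 0.06), and its neighbours CG14408, CG14411 and Grx5 were lower as well, by -0.46, -0.62 and -0.40 as differences. Dbct encodes a subunit of the complex that breaks down branched-chain amino acids. The signals of Dbct were 9.64, 9.64 and 9.62 in induced cells, against 10.41, 10.43 and 10.46 in S2 control. These arrays agreed closely within groups (SD 0.011 in induced cells and 0.026 in S2 control), and the difference was -0.80 (SE 0.05), or 1.74-fold. Cyp4s3, a cytochrome P450 gene, read 3.64, 3.69 and 3.72 in induced cells, against 4.86, 4.57 and 4.37 in S2 control. It was without overlap and differed by -0.92 (SE 0.10), but it was dim, at the 11.1 percentile of signal.

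Against this trend stood 3 members that were higher and passed. Ac13E encodes an adenylate cyclase, an enzyme that makes cyclic AMP. Its signals were 9.07, 9.10 and 9.26 in induced cells, against 7.58, 7.87 and 7.90 in S2 control. Every induced array was above every S2 control array, and the difference of 1.36 (SE 0.09), or 2.57-fold, was the highest of the window. A dimmer probe set of Ac13E gave 0.42 (SE 0.06) and passed in the same direction. For mud, whose protein orients the mitotic spindle, the signals were 9.54, 9.37 and 9.32 in induced cells, against 9.12, 9.07 and 8.83 in S2 control. The groups did not overlap, with a difference of 0.40 (SE 0.09). Its other probe sets gave 0.30 (SE 0.07), which passed, and 0.14 (SE 0.09), which did not.

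Neither end gene was lower. For mRNA-cap the arrays read 11.89, 11.96 and 11.94 in induced cells, against 11.95, 11.91 and 11.95 in S2 control. They overlapped at a bright level (95.6 percentile), and the difference was -0.01 (SE 0.05). For CG9213 they read 7.23, 7.34 and 7.25 in induced cells, against 7.02, 6.92 and 6.93 in S2 control, with induced cells above S2 control on all arrays by 0.32 (SE 0.06). The next positive changes in size belonged to genes that did not pass. The signals were 5.97, 5.98 and 5.91 in induced cells, against 5.88, 5.65 and 5.79 in S2 control for CG15642 (difference 0.18, SE 0.07). They were 10.14, 10.23 and 10.17 in induced cells, against 10.02, 9.96 and 10.10 in S2 control for mRpS25, a mitochondrial ribosome protein gene (difference 0.16, SE 0.06). In both genes the induced arrays lay above the S2 control arrays without overlap. The arrays of CG15643 read 6.26, 6.37 and 6.51 in induced cells, against 6.20, 6.20 and 6.31 in S2 control (difference 0.15, SE 0.07). Those of dah, whose protein acts in the cellularising embryo, read 7.20, 7.17 and 7.20 in induced cells, against 7.01, 7.05 and 7.19 in S2 control (difference 0.11, SE 0.06). Those of CG9114 read 7.84, 7.81 and 7.86 in induced cells, against 7.80, 7.53 and 7.92 in S2 control (difference 0.09, SE 0.09). In these last genes the groups overlapped. Without induced replicate 3 the change of CG15643 was 0.08, and without S2 control replicate 2 that of CG15642 was 0.12 and that of CG9114 was -0.02.

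**Figure D2:**
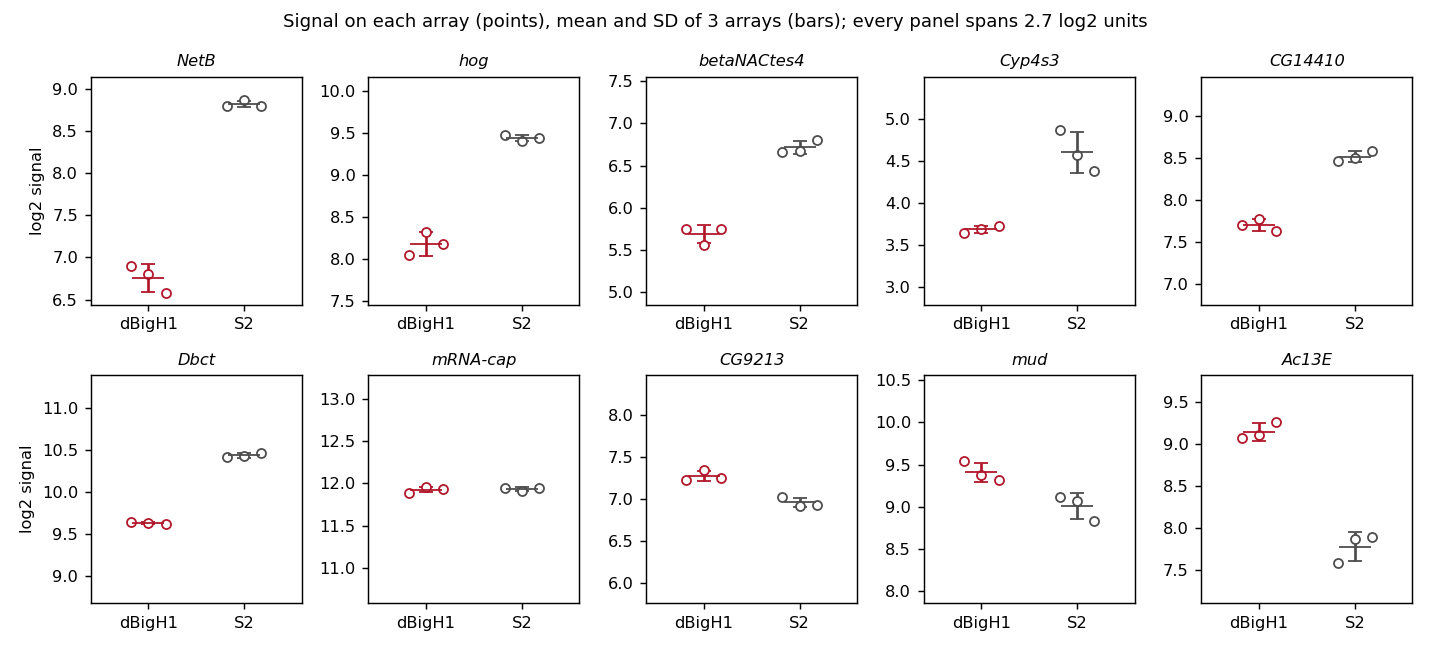
Log2 signal on every array for the 6 lowest changes, the end genes mRNA-cap and CG9213, and the higher members mud and Ac13E, with dBigH1-induced arrays on the left and S2 control on the right of each panel; points are arrays, bars the mean and SD of 3, and all panels span the same number of log2 units. Induced arrays of NetB sit between 6.58 and 6.90, below S2 control arrays at 8.79 to 8.87, while the arrays of mRNA-cap lie between 11.89 and 11.96 in both groups.

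In gene order, the lower members that passed lay between the end genes, but these ends were themselves set from the same changes. Among the 10 measured genes on each side, l(1)G0469 (-0.40) and Chsy (-0.17) were also lower and passed. The first 8 measured members, from mRNA-cap to CG9400, had a median change of 0.03, and mud was the one among them that passed. Lower members that passed ran from betaNACtes2, the 9th measured member, to CG7860, the 88th. Divided into 3 runs of 30 measured genes, the window had 10 lower and 1 higher genes from mRNA-cap to Grx5, 11 lower and 0 higher from CG32590 to CG9101, and 10 lower and 2 higher from PPYR1 to CG9213. Over all measured genes 16.0% were lower and 14.5% higher. The medians of these runs were -0.11, -0.14 and -0.05. Over the members above the median signal they were -0.40 (13 genes), -0.23 (16 genes) and -0.14 (23 genes). From NetB to Top1, 26 consecutive members above the median signal all had a negative change (-2.06 to -0.01, median -0.36), and 18 of these were lower and passed. With the dim genes between them included, the same stretch held 47 measured members with changes of -2.06 to 0.05 (median -0.15), of which 20 were lower and 0 higher. Of all measured genes above the median signal 21.3% were lower, and of all measured genes 16.0%. In the rest of chromosome X the longest run of consecutive genes above the median signal with a negative change was 8 genes. On other chromosomes it was 15 on 2L, 17 on 2R, 28 on 3L, 13 on 3R and 4 on chromosome 4. A running median over 15 genes was negative at 78 of the 90 positions in the window, and at 584 of 1769 in the rest of chromosome X. The window was drawn from these changes in gene order, and the stretch was taken as its longest. These comparisons are therefore description and carry no test.

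**Figure D3:**
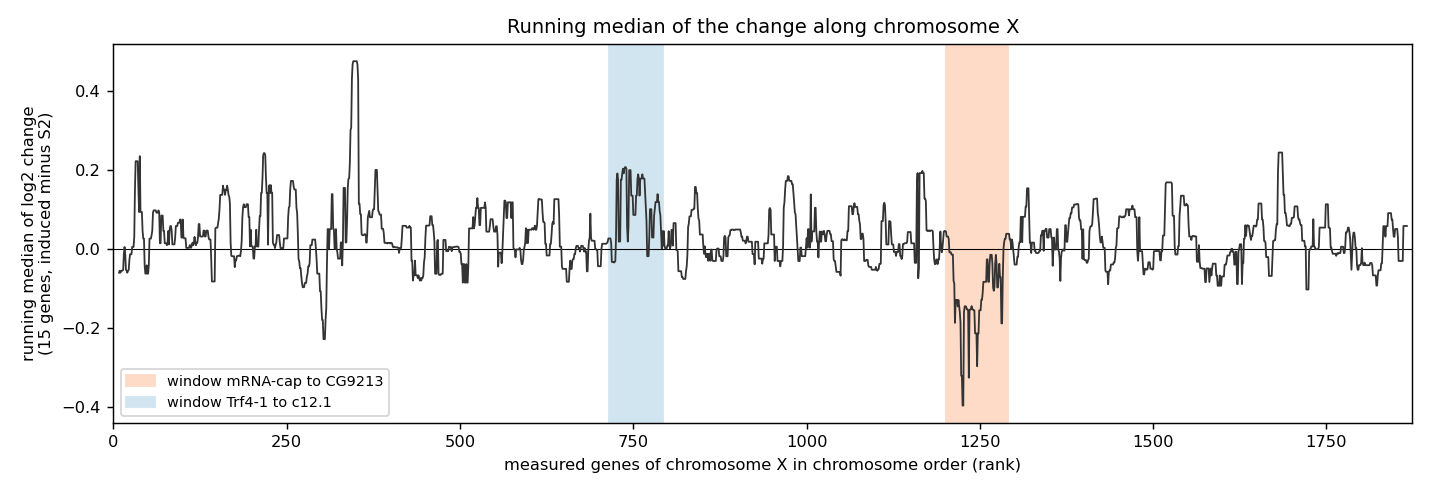
Running median of the log2 change (induced minus S2 control) over 15 measured genes along chromosome X, against the rank of the gene; shaded bands mark the window from mRNA-cap to CG9213 and the window from Trf4-1 to c12.1. The lowest point of the line, -0.40, is inside the mRNA-cap to CG9213 window around Ag5r, and outside it the line spans -0.23 to 0.47.

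Just outside the window, the 5 measured genes before mRNA-cap had log2 changes of -0.10 to 0.20. Counting away from it, Dus2, which encodes an enzyme that modifies transfer RNA, read 7.60, 7.68 and 7.53 in induced cells, against 7.52, 7.60 and 7.47 in S2 control. Fbxl4 read 8.12, 8.21 and 8.22 in induced cells, against 8.17, 8.08 and 8.15 in S2 control, and CG42271 read 11.52, 11.49 and 11.54 in induced cells, against 11.47, 11.49 and 11.45 in S2 control. The groups overlapped for Dus2 (change 0.07) and Fbxl4 (change 0.05), and for CG42271 (change 0.04) they were apart by less than the printed precision. mRpL38, another mitochondrial ribosome protein gene, read 9.61, 9.69 and 9.59 in induced cells, against 9.47, 9.32 and 9.51 in S2 control, and was higher without overlap, by 0.20 (SE 0.06). CG11674 read 5.81, 5.96 and 5.70 in induced cells, against 6.01, 5.76 and 6.01 in S2 control, with overlap and a change of -0.10.

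The 5 measured genes after CG9213 had log2 changes of 0.00 to 0.44. CG42299 read 4.87, 4.91 and 4.91 in induced cells, against 4.86, 4.92 and 4.91 in S2 control, with overlap and a change of 0.00. For cerv, whose protein belongs to the SMC5/6 complex of DNA repair, the arrays read 8.92, 9.06 and 9.09 in induced cells, against 8.71, 8.71 and 8.79 in S2 control. CG7872 read 11.37, 11.46 and 11.43 in induced cells, against 11.28, 11.37 and 11.35 in S2 control. In cerv and CG7872 the induced arrays were above the S2 control arrays without overlap, by 0.29 (SE 0.06) and 0.09 (SE 0.05), and cerv passed while CG7872 did not. CG9215 read 8.72, 8.71 and 8.64 in induced cells, against 8.50, 8.41 and 8.62 in S2 control, a change of 0.18. CG8097 read 9.22, 9.26 and 9.23 in induced cells, against 8.81, 8.72 and 8.87 in S2 control, a change of 0.44. Neither gene had overlapping groups, and CG8097 passed while CG9215 did not. Over 10 measured genes on each side, 2 were higher and 1 was lower before the window (median 0.05), and 2 were higher and 1 was lower after it (median 0.01).

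Counts by role are small and drawn from the same window, of which 34.4% was lower and 3.33% higher, against 16.0% lower and 14.5% higher over all measured genes. Among the genes of neuronal signalling, 3 of 10 measured members were lower, 1 was higher and 6 did not pass (median -0.06). Besides NetB, eag, the founding gene of a family of voltage-gated potassium channels, was lower by a difference of -0.42 (SE 0.06). Its signals were 7.86, 7.82 and 7.73 in induced cells, against 8.24, 8.14 and 8.29 in S2 control, without overlap. Rab3-GEF, which activates a GTPase of synaptic vesicles, differed by -0.36 (SE 0.08) at a dim mean signal of 4.55 in induced cells and 4.90 in S2 control. Ac13E, given above, was the higher member, and the others of the group did not pass. The log2 change was 0.08 for the sodium leak channel gene na, 0.03 for the cyclic nucleotide gated channel gene Cngl and -0.01 for the adenylate cyclase gene rut. It was -0.15 for the ubiquitin ligase gene hiw, -0.09 for the immunoglobulin-domain gene dpr8 and -0.04 for the POU factor gene acj6. Of the 10 genes, 6 were above the median signal.

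A group of nuclear and RNA genes, with the deacetylase gene HDAC6 placed among them, had 3 of 6 measured members lower and 0 higher (median -0.22). All 6 were above the median signal, where 21.3% of all measured genes were lower and 21.1% higher. HDAC6 encodes a deacetylase that acts largely in the cytoplasm, and it read 9.55, 9.63 and 9.64 in induced cells, against 10.14, 10.09 and 10.28 in S2 control. Top1 encodes the topoisomerase that relaxes DNA ahead of polymerases, and it read 10.98, 10.99 and 10.83 in induced cells, against 11.39, 11.43 and 11.37 in S2 control. In both genes every induced array lay below every S2 control array, with differences of -0.56 (SE 0.06) and -0.46 (SE 0.06). The gene mh, whose protein is a protease that removes proteins crosslinked to DNA, differed by -0.29 (SE 0.06). The juvenile hormone receptor gene gce (-0.14), the splicing helicase gene Prp5 (-0.10) and mRNA-cap did not pass (log2 changes in brackets). A dimmer probe set of gce was lower and passed, at -0.21 (SE 0.07).

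In the group of membrane traffic, cytoskeleton and cell division, 3 of 7 measured members were lower, 1 was higher and 3 did not pass (median -0.19). All 7 were above the median signal, where 21.3% of all measured genes were lower and 21.1% higher. Flo2, a flotillin of membrane rafts, read 10.78, 10.72 and 10.85 in induced cells, against 11.18, 11.33 and 11.04 in S2 control. Scamp, a protein of secretory vesicles, read 11.37, 11.39 and 11.35 in induced cells, against 11.75, 11.75 and 11.80 in S2 control. The groups were apart in both, by -0.40 (SE 0.08) and -0.40 (SE 0.05). Gmap, a Golgi protein, differed by -0.38 (SE 0.06), and its span overlaps that of Ac13E, the highest member. The γ-tubulin complex gene Grip128 (-0.19), the anaphase-promoting complex gene shtd (0.02) and dah did not pass (log2 changes in brackets).

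Metabolic and transport genes had 6 of 11 measured members lower, 0 higher and 5 that did not pass (median -0.24), beside 16.0% lower and 14.5% higher over all measured genes. Ahcy encodes the hydrolase that clears S-adenosylhomocysteine, the by-product of methylation reactions, and it read 12.33, 12.39 and 12.35 in induced cells, against 12.63, 12.50 and 12.64 in S2 control. It was lower on every induced array, with a difference of -0.24 (SE 0.06), at a bright level (97.7 percentile). The acyl-CoA synthetase gene pdgy differed by -0.37 (SE 0.06), Alg14, which acts in N-glycosylation, by -0.38 (SE 0.06), and the amino acid transporter gene sbm by -0.32 (SE 0.08). Tat (tyrosine aminotransferase, 0.03), Eo (ecdysone oxidase, -0.03), the lipid droplet gene Lsd-2 (-0.08), the lipase gene dob (-0.21) and the nucleoside diphosphate kinase gene nmdyn-D6 (-0.19) did not pass, with log2 changes in brackets.

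Of 5 members for mitochondria and ribosomes, 2 were lower and 3 did not pass (median -0.05). All 5 were above the median signal, where 21.3% of all measured genes were lower. Grx5, a glutaredoxin of iron-sulphur cluster assembly, read 11.08, 11.06 and 11.04 in induced cells, against 11.46, 11.41 and 11.49 in S2 control, without overlap and with a difference of -0.40 (SE 0.05). Cox17, a copper chaperone for cytochrome oxidase, read 12.50, 12.53 and 12.49 in induced cells, against 12.68, 12.61 and 12.70 in S2 control and differed by -0.15 (SE 0.05), the smallest change among the lower members that passed. The log2 change was -0.05 for the complex I gene ND-B18 and -0.03 for the ribosomal protein gene RpL37-1, with a mean signal of 13.87 in induced cells and 13.89 in S2 control, the brightest of the window. Of 5 genes for testis or secreted proteins, the betaNACtes genes were lower, and the mucin gene Muc12Ea (-0.24) and the antigen-5-related genes Ag5r (-0.15) and Ag5r2 (-0.16) did not pass, log2 changes again in brackets. All 5 were at or below the median signal.

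For 46 measured members no role is given here. Among them 12 were lower, 1 was higher and 33 did not pass, with a median of -0.02. Over all measured genes 16.0% were lower and 14.5% higher. Apart from the genes given above, the lower ones, with log2 changes in brackets, were CG15890 (-0.72), drd (-0.75), CG11655 (-0.45), CG15027 (-0.35), CG7860 (-0.34), be (-0.33), CG33177 (-0.30) and CG5877 (-0.27). In each of these the induced arrays all lay below the S2 control arrays. The genes were picked because they passed as lower, so this separation adds nothing to the call. The share over all measured genes, called or not, was 23.6%.

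Of the 31 lower members 26 were above the median signal, as were 1485 of the 1918 lower genes of the whole array. Of the 52 members above the median of all probe sets, 26 were lower, 3 were higher and 41 had a negative change (median -0.17). Of the 38 dimmer members, 5 were lower and 0 higher (median -0.01). Of the 4998 dimmer genes among all measured genes, 433 were lower and 267 higher (median -0.02). On the rest of chromosome X 43 were lower and 39 higher of 619 dimmer genes (median -0.02). The 23 brighter members that did not pass had changes of -0.19 to 0.16. Above the median, the rest of chromosome X had a median of 0.06, with 14.6% of genes lower and 27.7% higher, and all measured genes had a median of 0.01, with 21.3% lower and 21.1% higher. Above the median signal were 57.8% of measured members, 65.3% of the rest of chromosome X and 58.3% of all measured genes, and these shares were not compared by a test.

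**Figure D4:**
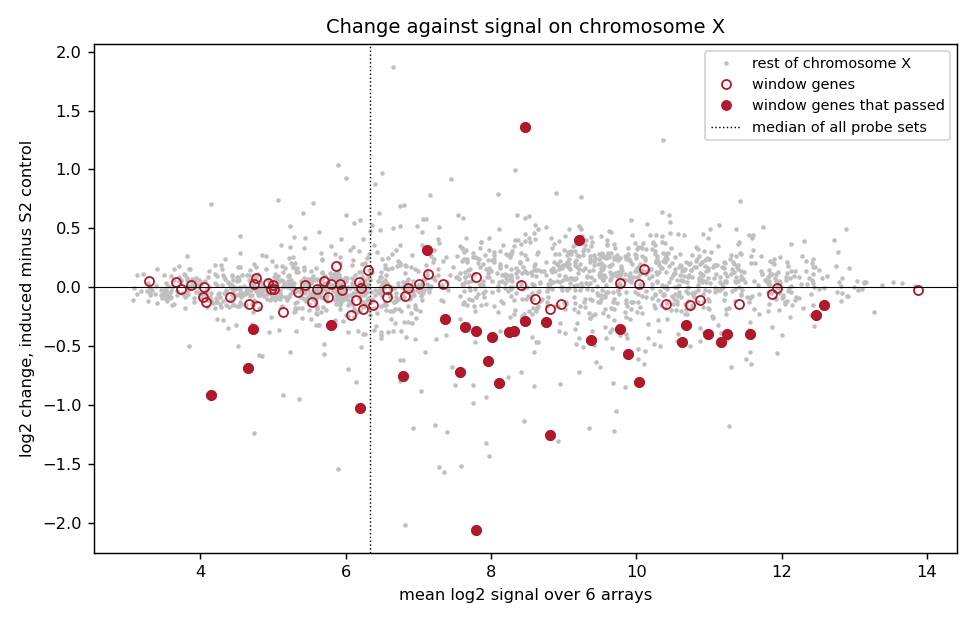
Log2 change (induced minus S2 control) against the mean log2 signal over 6 arrays for the 90 window genes (red) and the rest of chromosome X (grey); filled red points passed, and the dotted line is the median of all probe sets, 6.33. Red points to the right of the line lie mostly below 0, and those to the left lie mostly close to it.

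Sizes were modest for most members. The 31 lower members had a median change of -0.40 and a range of -2.06 to -0.15, against a median of -0.34 for the 1918 lower genes of the whole array. Changes of at least 2-fold were found in 3 lower members (NetB, hog and betaNACtes4) and 1 higher member (Ac13E). Among all 11982 measured genes 133 lower and 43 higher genes reached that size. On the rest of chromosome X it was 17 lower and 3 higher of 1783 measured genes. With the mean of its probe sets in place of the brightest, the change of Ac13E was 0.89, and that of betaNACtes4 was -0.97 without induced replicate 2 and -0.98 without S2 control replicate 3. A further 8 lower members lay between -1 and -0.5, 18 between -0.5 and -0.25, and 2 nearer to 0. Members with several probe sets of their own, 12 in number, had 0 cases in which these passed in opposite directions. CG14408 was lower on all 3 of its probe sets, with changes of -0.46, -0.49 and -0.74. Scamp was lower on its brighter ones, with changes of -0.40 and -0.46, and had -0.03 on the dimmest, which did not pass. The brightest probe set of be was lower (change -0.33), whereas a dim one had a change of 0.22 and did not pass. In Cngl, the brightest had a change of 0.03 and 1 of its other probe sets was lower, with -0.20. A total of 37 measured members overlap another measured member in span, and 12 of these were lower, beside 19 of the 53 that overlap none. Of all measured genes 16.0% were lower.

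The other chromosome parts gave a frame for the window. The rest of chromosome X, 1783 measured genes, had a median change of 0.02 (25th to 75th percentile -0.09 to 0.16), with 11.9% of genes lower and 20.2% higher. In the window these shares were 34.4% and 3.33%, from quartiles of -0.35 and 0.02. The window from Trf4-1 to c12.1, on the same chromosome, had 4 lower and 28 higher of 77 measured genes (median 0.10). The window from mri to CG13887, on arm 3L, had 33 lower and 5 higher of 70 (median -0.14). The medians of 2L, 2R, 3L, 3R and chromosome 4 lay between -0.02 and -0.00. All these stretches share the same 6 arrays, and the windows were chosen from the same contrast, so no test between them is given.

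**Figure D5:**
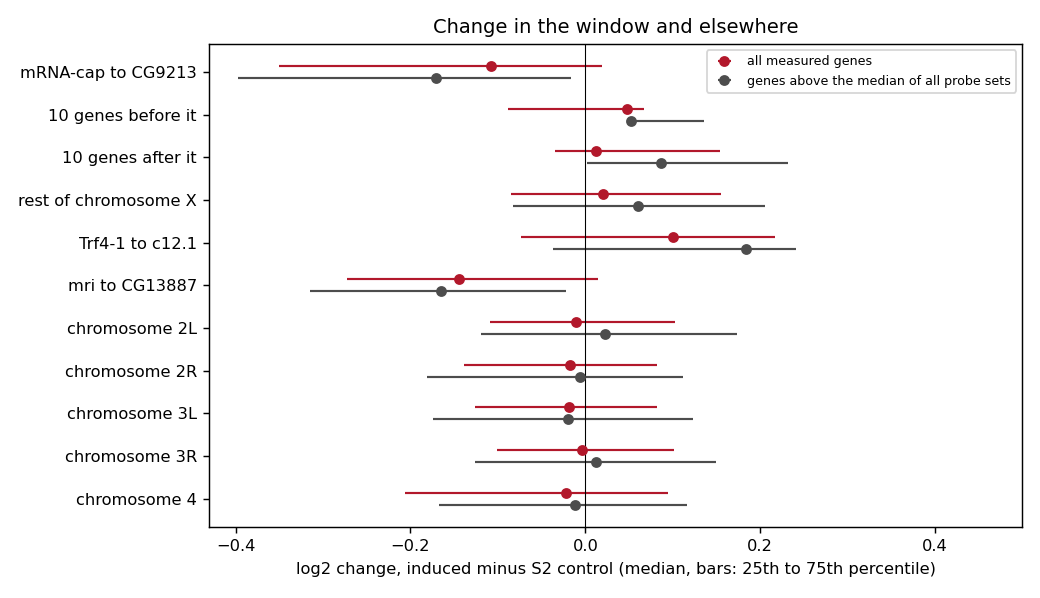
Median log2 change (induced minus S2 control) with its 25th to 75th percentile for the window, the 10 measured genes on each side, the rest of chromosome X, a pair of other windows and other chromosomes, over all measured genes (red) and over those above the median signal (grey). The window's medians are -0.11 and -0.17, and those of the rest of chromosome X are 0.02 and 0.06.

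Genes that act on the X chromosome or beside mRNA-cap were followed through short lists. Of 7 measured genes of dosage compensation (9 listed), 3 were higher, 0 lower and 4 did not pass. Among them, the helicase gene mle differed by 0.25 (SE 0.07, limma adjusted p = 0.0255) and the acetyltransferase gene mof by 0.19 (SE 0.06, limma adjusted p = 0.0480). The histone kinase gene JIL-1 was higher by 0.39 (SE 0.05, limma adjusted p = 0.000551). The complex's limiting male subunit msl-2 had a log2 change of -0.14, msl-1 of 0.18, msl-3 of -0.11 and the DNA-binding gene Clamp of -0.19. The roX RNAs of the complex were not measured with a probe set of their own. Of 7 measured genes of capping and cap binding, 4 were higher, 0 lower and 3 did not pass, mRNA-cap among these. The cap-binding genes Cbp20 and Cbp80 differed by 0.25 (SE 0.05) and 0.20 (SE 0.05), the translation factor gene eIF4E1 by 0.24 (SE 0.05), and the cap methyltransferase gene aft by 0.40 (SE 0.06). Rnmt, the methyltransferase that acts on the cap guanosine, had a log2 change of -0.17 and Cmtr1, which methylates the first nucleotide, of 0.18. The listed names Dcp1 and Dcp2 were not matched and are not analysed here. Over all genes 14.5% were higher and 16.0% lower. All measured genes of both lists were above the median signal, where 21.1% of all measured genes were higher and 21.3% lower.

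Other facts of the arrays stood as follows. BigH1 itself had a mean log2 signal of 13.46 ± 0.022 in induced cells, against 5.19 ± 0.295 in S2 control (SD, n = 3 each). All 12 haemocyte and S2 marker genes were above the median signal, with 6 higher and 3 lower (21.1% and 21.3% of all measured genes above that median), and their mean signals spanned 6.33 to 12.90 in induced cells and 6.68 to 12.43 in S2 control. The markers of fat body (2 measured), muscle (1) and gut (1) were below that median, as was vas of the germ line, whereas the neuronal genes elav, nSyb and brp were above it and did not pass. The germ line gene bam was above it and higher, at 10.06 in induced cells and 9.44 in S2 control. Array medians over tested probe sets lay between 6.32 and 6.35. The 5′ minus 3′ signal of the Act5C control was -1.79 ± 0.08 in induced cells and -1.26 ± 0.09 in S2 control, and GAPDH from the same control series read -1.73 ± 0.05 in induced cells and -1.92 ± 0.04 in S2 control (SD, n = 3 each). The other controls differed less, induced minus S2 control: 0.03 for ACTIN, -0.08 for the other GAPDH control, -0.04 for 18S rRNA and -0.08 for eIF-4a. The part of RNA quality in the window's values was not tested. The labels number replicates without naming separate cultures, so errors and p-values cover the spread among these arrays alone, which may be technical.

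Members without a value of their own, 47 in all, were 24 protein-coding genes, 14 long non-coding RNAs, 5 antisense RNAs and 4 microRNAs. Among them are NetA and the microRNA genes mir-12, mir-283 and mir-304.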

How the data were processed

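Total RNA of 6 samples was measured on Affymetrix Drosophila arrays, 3 of dBigH1-induced and 3 of S2 control cells. The authors deposited log2 signals, 1 per probe set and array, and the submitters' processing notes name RMA without a version. RMA gives all arrays a like distribution, which removes a change common to all transcripts, and background compresses differences of dim probe sets. Of 18952 probe sets, 183 platform controls were left out and 18769 tested. The platform annotation gave 1 gene for 13647, several for 402 and none for 4720. A gene was read by its brightest one-gene probe set over all arrays, and RefSeq's Release 6 table gave names and order.

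Differences, induced minus S2 control, were fitted across all tested probe sets in R 4.3.3 by limma 3.58.1 (functions lmFit and eBayes, group as the only term, two-sided, Benjamini-Hochberg adjustment). A gene counted as lower or higher had an adjusted p under 0.05. The fit was checked on simulated arrays, where it recovered 11.9% of log2 changes of 0.25 and 95.5% of those of 0.5. Far fewer probe sets were called there (147 of 18769) than in the data, so these shares may not carry over. Members that did not pass may still have changed. Exact permutation of 3 against 3 arrays gives no p below 0.1 and was not used.

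Members, lists and role groups were chosen with earlier results of these data known. Values on every array are given for the end genes, the 8 highest and 6 lowest changes, any member with opposing probe sets (0 found) and 5 genes beyond each end, and further members are named by role. Alternatives tried were leaving out dim probe sets, other scalings, moderation, an unmoderated model, array weights, a stricter threshold, the replicate block, arrays left out, averaged probe sets and narrower member sets. Same-numbered arrays of both groups correlated at 0.04, -0.10 and 0.01 in their deviations, so the numbers were not taken as pairs. Promoter and protein sequences, strands and distances were not used here. Figures were drawn with matplotlib 3.10.9.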

Additional observations from a re-analysis of the deposited data

How the results depend on the processing

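The window was chosen on the changes of these same arrays, so the sign of its median is not independent of that choice. The median change of the members stayed negative under every alternative run. It was -0.17 over the members above the median signal, also its value without dim probe sets, and -0.14 after centring on ribosomal protein genes, which moved the median of all genes to -0.04. With 1 array left out in turn it was -0.11 to -0.09, with 30 to 33 lower and 3 to 4 higher members. Among all genes these runs gave 1526 to 1805 lower and 1285 to 1554 higher. The replicate block left 31 lower and 3 higher members, with 1727 lower and 1549 higher among all genes, and same-numbered arrays did not correlate best with each other in every case. An unmoderated linear model gave 24 lower and 2 higher members, and mud did not pass in it, with 1362 lower and 1183 higher among all genes. At an adjusted p under 0.01, 28 members were lower and 3 higher, with 1279 lower and 1077 higher among all genes. Without members read by s or x probe sets, a setting chosen after seeing the data, 30 were lower and 3 higher. Over all measured genes of the main fit 16.0% were lower and 14.5% higher. Leaving out arrays in turn, mRNA-cap ranged from -0.022 to 0.011, positive at 0.011 without induced replicate 1, and CG9114 ranged from -0.020 to 0.176, negative at -0.020 without S2 control replicate 2. Of genes that did not pass, mRpS25 passed in 4 alternatives, among them leaving out S2 control replicate 3, and CG15642 in 1, without S2 control replicate 1. Over the same omissions CG15643 ranged from 0.082 to 0.208 and CG15642 from 0.122 to 0.238. With the mean of its probe sets, Ac13E was higher by 0.89 in place of 1.36. The causes were not tested. The precision is limited by 3 arrays a group and, for dim probe sets, by their signal over background.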

Other observations

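Probe sets that name several members were left out of the counts. The one shared by betaNACtes2, betaNACtes3 and betaNACtes6 averaged 6.69 in induced cells and 7.11 in S2 control, a change of -0.42 (SE 0.07), and was lower in the limma fit. The one shared by CG33177 and CG33178 had a change of -0.13 (SE 0.07) and did not pass, while CG33177's own probe set was lower at -0.30. The 3 probe sets shared by CG6294 and CG6299 had changes of -0.12, -0.08 and 0.00 and did not pass.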
